A study of Homo sapiens with 96 samples.

Results

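FOXO1 and FOXO3, 2 transcription factors of the FOXO family, and 6 genes known as FOXO targets (IRS2, INSR, CCNG2, BCL6, SESN1 and TXNIP) were followed in MDA-MB-231 cells, an established human breast cancer line. The 8 genes were chosen by symbol and covered 18 of the 22406 probe sets tested, among 11940 named genes. The study used 96 Affymetrix arrays in 3 series named in the array titles, 3D04 in 3D culture and 2D03 and 2D04 in 2D culture, with 32 arrays each. All cells were grown to 80% confluence and held in low serum for 24 h before treatment. In the U0126 arm, cells received 10 uM U0126, an inhibitor of the kinase MEK, for 30 min and then 10 ng/ml EGF at 0 h. The DMSO-EGF arm received the vehicle DMSO and then EGF, the EGF arm EGF alone, and the control arm neither. Arrays were taken at 0, 0.5, 1, 4, 8, 12, 24 and 48 h, where the label 05h was read as 0.5 h. At 0 h there were U0126 and DMSO arrays without EGF and 2 control arrays per series. Every other arm and time had 1 array per series, so 3D culture and series 3D04 cannot be told apart. U0126 was the only inhibitor, so MEK inhibition and any other action of the compound cannot be told apart either. The labels do not say whether the arrays came from separate cultures, and p-values measure the spread between these arrays, which may be technical.

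FOXO proteins bind DNA through a forkhead domain and switch on genes for cell cycle arrest, stress resistance and fuel use. Insulin and growth factors restrain them through PI3K and AKT, which phosphorylates FOXO proteins and keeps them out of the nucleus. ERK, the kinase that MEK activates, has also been reported to phosphorylate FOXO3 and promote its breakdown. The arrays measured RNA, and neither the amount nor the location of FOXO proteins was measured.

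RefSeq promoter sequences, from 250 bases before to 50 bases after a gene's start or shorter, were searched on both strands for GTAAACA, a forkhead motif, CAAAACA, a forkhead motif of insulin-responsive promoters, and CACGTG, an E-box. No motif overlapped another. They occurred in 3.42%, 4.92% and 7.26% of 35116 RefSeq promoter windows of all genes. The 15 windows of the 8 genes held 3 matches, in TXNIP, IRS2 and CCNG2, which are shown because their RNA changed in the comparisons below, with the match in capitals. The windows of the other members, FOXO1 and BCL6 among them, held none. A match is a run of letters, and binding was not measured. TXNIP is shown with its whole window, and IRS2 and CCNG2 as the match with 30 bases on each side. They are TXNIP (GRCh38.p14, chr1:145996530-145996829, minus strand, GTAAACA at bases -124 to -118 from the start), IRS2 (chr13:109786587-109786653, minus strand, TGTTTTG, the reverse complement of CAAAACA, at -40 to -34) and CCNG2 (chr4:77157147-77157212, plus strand, CACGTG at -30 to -25).
TXNIP: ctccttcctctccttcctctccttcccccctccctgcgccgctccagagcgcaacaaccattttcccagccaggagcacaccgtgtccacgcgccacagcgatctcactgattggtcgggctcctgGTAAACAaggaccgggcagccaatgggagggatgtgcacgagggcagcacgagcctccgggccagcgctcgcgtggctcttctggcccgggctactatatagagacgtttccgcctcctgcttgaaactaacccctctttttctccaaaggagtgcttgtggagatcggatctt
IRS2: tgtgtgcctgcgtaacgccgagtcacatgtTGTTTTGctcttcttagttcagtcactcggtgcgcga
CCNG2: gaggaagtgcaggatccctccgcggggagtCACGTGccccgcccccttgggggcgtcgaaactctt

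The deposited values are centred per probe set on an unknown reference and are read here as log2. A value is therefore a difference from that reference and not a level, genes cannot be ranked by abundance, and the line's identity could not be checked through marker levels. Arrays of 0.5 and 1 h were averaged as the early window, those of 4, 8 and 12 h as the middle window, and those of 24 and 48 h as the late window. Each arm had 2, 3 and 2 arrays in these windows in 3D and 4, 6 and 4 in 2D. In 3D an arm's arrays within a window were each taken at a different hour, all in series 3D04. Standard errors (SE) and p-values of the 3D U0126 effects therefore reflect how these effects varied between hours of that series. Those in 2D reflect mainly the spread between series at the same hour. SEs and shares of called probe sets are thus not directly comparable between cultures. A probe set was called when limma's p, adjusted by Benjamini-Hochberg over all 22406 probe sets, was under 0.05. The U0126 effect is the U0126 value minus the DMSO-EGF value. In the late window the ERK feedback gene DUSP6 fell by 2.40 in 3D (probe set 208893_s_at, adjusted p = 3.8e-06) and by 2.60 in 2D (adjusted p = 1.6e-11), while its other probe sets, 208891_at and 208892_s_at, gave -1.71 and -1.72 in 3D and -2.25 and -2.17 in 2D. EGR1, an immediate early gene, fell by 4.27 in 3D (201694_s_at, adjusted p = 2.8e-11) and fell by 3.31 in 2D (adjusted p = 1.6e-11), while 201693_s_at gave -0.42 in 3D (adjusted p = 0.0011) and -0.82 in 2D (adjusted p = 0.57). SPRY4, a feedback inhibitor, fell by 2.24 in 3D and fell by 2.76 in 2D at probe set 221489_s_at, while 220983_s_at showed 0.08 and 0.03. The U0126 arrays of series 2D03 at 8 and 12 h had an actin 5' minus 3' signal of -1.26 and -1.08, against -0.36 to 0.31 on the other 94 arrays, a measure used to judge RNA quality.

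FOXO1, BCL6 and TXNIP rose under U0126 at 24 and 48 h in 3D. In 2D the main test, which does not pair the series, called FOXO1 and BCL6. A fit with the series as a replicate block also called TXNIP in 2D, where it called 20.9% of all probe sets. In 3D both FOXO1 probe sets, all 3 TXNIP probe sets and both BCL6 probe sets rose, 7 of the 18 member probe sets, beside 18.6% of all probe sets called higher. Both IRS2 probe sets fell, 2 of 18, beside 16.1% of all called lower. In 2D FOXO1 (both probe sets) and BCL6 (1 of 2) rose, 3 of 18 beside 5.36%, and 0 members fell beside 5%. The late member median was 0.16 in 3D, where the median of all probe sets was 0.03, and 0.31 in 2D, where it was 0.005. FOXO3 and INSR passed the test in no window of either culture.

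In the middle window in 3D, FOXO1, CCNG2 and TXNIP rose at all of their probe sets, 8 of 18 beside 5.74% of all probe sets. IRS2 fell at both of its probe sets, 2 of 18 beside 6.87%. In 2D 0 of 18 members were called in the middle window, beside 6.53% of all called either way. In the early window 0 of 18 were called in 3D (0.295% of all) and in 2D (0.00893% of all). At unadjusted p under 0.05, the early comparison held 1101 probe sets in 3D and 251 in 2D.

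**Figure D1:**
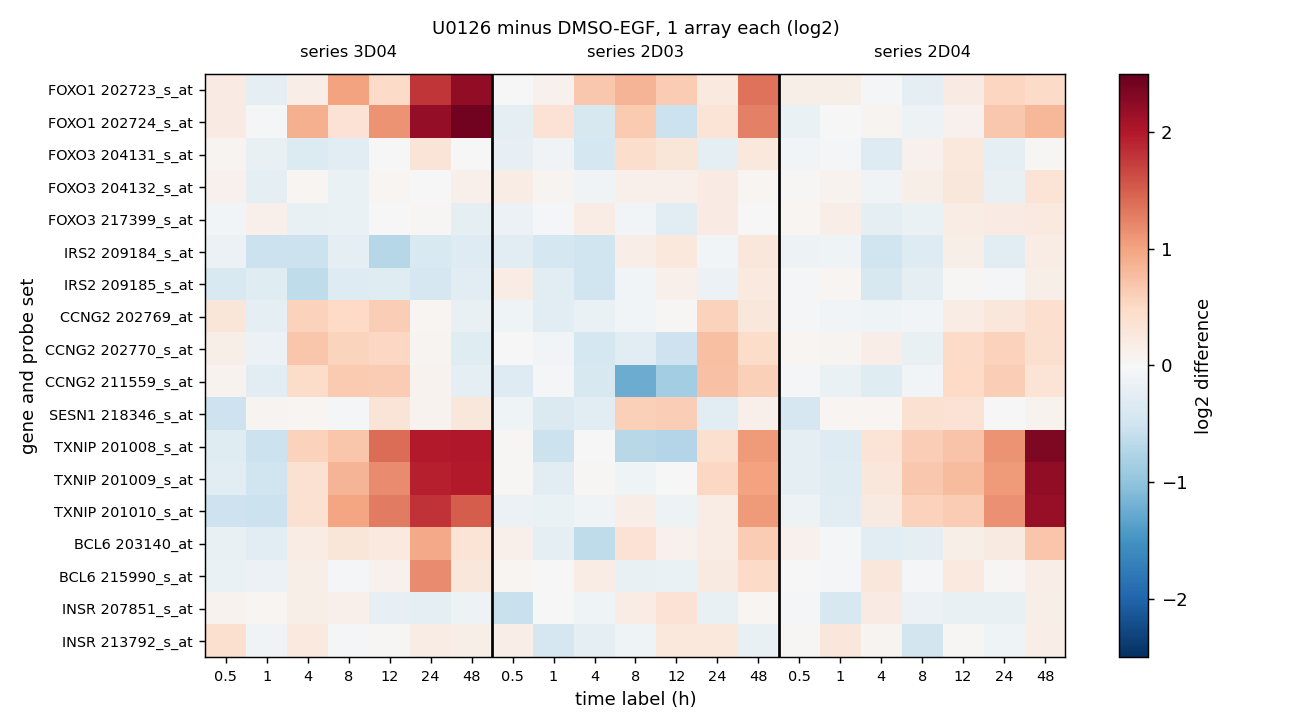
Heat map of the U0126 minus DMSO-EGF log2 difference of every member probe set (rows) at each time label in h (columns) in series 3D04, 2D03 and 2D04, where each cell is 1 array minus 1 array. Red cells, higher under U0126, fill the late 3D columns of FOXO1 and TXNIP, and the IRS2 rows are below 0 at all 7 times in 3D.

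FOXO1, a FOXO factor on chromosome 13, climbed under U0126 in 3D and changed little in the other arms. At probe set 202724_s_at the 3D values at 0.5, 1, 4, 8, 12, 24 and 48 h were 0.87, 0.89, 1.36, 1.42, 1.82, 2.80 and 3.27 under U0126, against 0.67, 0.94, 0.47, 1.06, 0.69, 0.61 and 0.85 under DMSO-EGF. Every U0126 array from 4 h on was above every DMSO-EGF, EGF and control array of the series. The late difference was 2.31 (SE 0.17, adjusted p = 9.5e-09, n = 2 arrays per arm, those of 24 and 48 h), a 4.94-fold change. The other probe set, 202723_s_at, had 1.98 and 2.27 at 24 and 48 h under U0126, against 0.20 and 0.06 under DMSO-EGF, and a late difference of 2.00 (SE 0.16, adjusted p = 1.5e-08), a 3.99-fold change. Across all arrays the probe sets correlated at r = 0.79.

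The middle difference of FOXO1 in 3D was 0.79 (SE 0.14, adjusted p = 0.0009) at 202724_s_at and 0.55 (SE 0.13, adjusted p = 0.0075) at 202723_s_at. The call of 202723_s_at was lost in 3 of the 6 fits that left out 1 middle array, where the difference lay between 0.39 and 0.74. At 0 h, after the pre-treatment and without EGF, 202724_s_at had 0.34 with U0126 and 0.91 with DMSO in 3D, 1 array each.

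In 2D the late FOXO1 difference was smaller. At 202723_s_at the U0126 values at 24 and 48 h were 0.93 and 1.91 in series 2D03 and 1.14 and 1.55 in 2D04, against 0.68 and 0.56 in 2D03 and 0.60 and 1.07 in 2D04 under DMSO-EGF. Within each series both U0126 arrays were above both DMSO-EGF arrays, and across series the arms overlapped. The late difference was 0.66 (SE 0.20, adjusted p = 0.026, n = 4 arrays per arm), a 1.57-fold change. At 202724_s_at it was 0.78 (SE 0.25, adjusted p = 0.034). With the series as a replicate block the adjusted p was 0.0020 and 0.0022. By single time, a test chosen after the values were seen, FOXO1 202723_s_at differed by 0.92 at 48 h (adjusted p = 0.042) and by 0.40 at 24 h (adjusted p = 0.74). At 48 h 3.39% of all probe sets were called higher.

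In the main test, which does not pair the series, the 2D late calls rested on single arrays and on 48 h. The fits below that leave out arrays were not run with the replicate block. Without the 48 h arrays 0 of 18 members were called. Without DMSO-EGF repeat 1 at 24 h, DMSO-EGF repeat 1 at 48 h or U0126 repeat 2 at 24 h, 0 were called, and 1 was called without U0126 repeat 2 at 48 h. Repeat 1 is series 2D03 and repeat 2 is series 2D04.

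The late FOXO1 response to U0126 was larger in 3D than in 2D. The difference between the late effects (3D minus 2D) was 1.34 (SE 0.23, adjusted p = 4.5e-05) at 202723_s_at and 1.53 (SE 0.29, adjusted p = 2e-04) at 202724_s_at, and it was called in all 12 fits that left out 1 array. Of all probe sets, 4.01% were called higher in this comparison. In the middle window, a test added after the values were seen, 202724_s_at differed by 0.83 (SE 0.23, adjusted p = 0.037). It was called in 9 of 18 such fits, beside 1.94% of all probe sets called higher. The other probe set, 202723_s_at, was called in 0 of 18 such fits, where the difference lay between 0.05 and 0.39. Its middle U0126 effect averaged 0.72 in 2D03, -0.03 in 2D04 and 0.55 in 3D. Without both 2D03 arrays of low actin 5' signal, 202724_s_at differed by 1.05 and 202723_s_at by 0.31. In that fit the 2D03 U0126 value rested on the 4 h array alone, so the hours no longer matched between cultures.

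**Figure D2:**
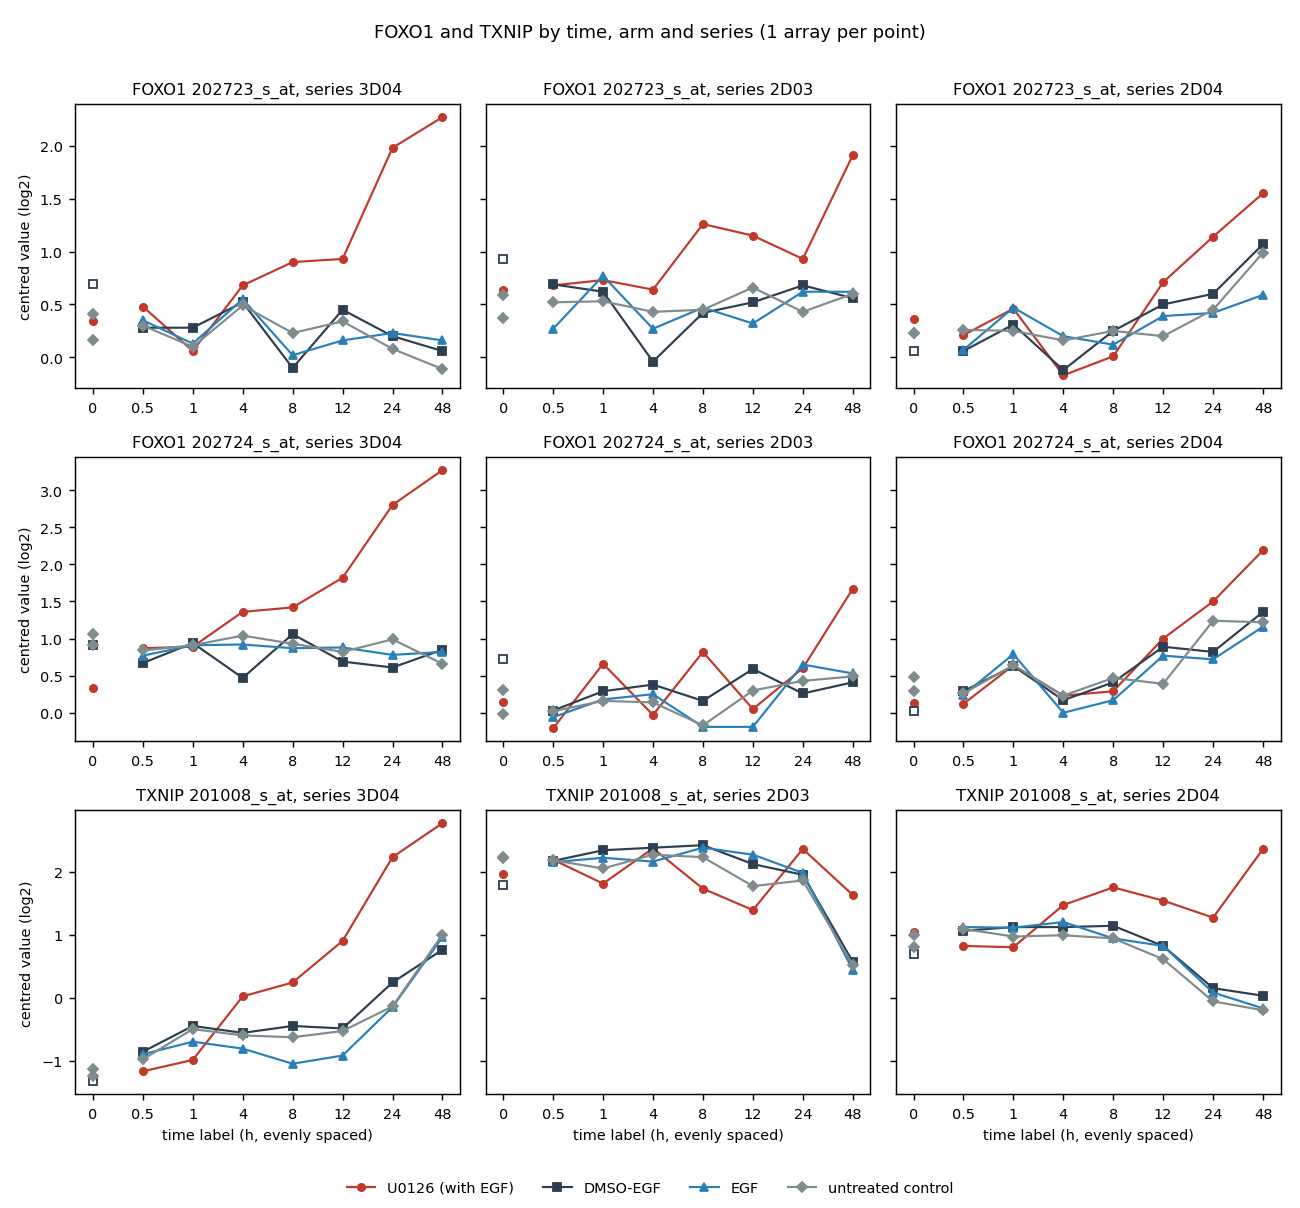
Centred log2 values of FOXO1 (202723_s_at, 202724_s_at) and TXNIP (201008_s_at) against the time label in h, evenly spaced, in series 3D04, 2D03 and 2D04, where each point is 1 array, lines join an arm's arrays, and the 0 h points are U0126 without EGF (circle), DMSO without EGF (open square) and 2 controls (diamonds). The U0126 line of 202724_s_at in 3D ends at 3.27 and the other arms end between 0.66 and 0.85.

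FOXO3, the other FOXO factor, lies on chromosome 6 and gave differences that did not pass the test. In 3D the late U0126 effect was 0.16, 0.07 and -0.12 at 204131_s_at, 204132_s_at and 217399_s_at (adjusted p = 0.22, 0.72 and 0.47). In 2D it was -0.05, 0.11 and 0.17 (adjusted p = 0.96, 0.90 and 0.42). The 95% intervals of the late effects reached at most 0.36 in 3D and 0.56 in 2D, so a change of the size seen for FOXO1 in 3D lies outside them. The 3 probe sets agreed poorly, with r between -0.09 and 0.45 across arrays, and FOXO3B, a near-identical copy with a probe set of its own, can share their signal. The FOXO3B probe set 210655_s_at had late effects of 0.03 in 3D and -0.02 in 2D. FOXO4, another factor of the family, had 0.27 in 2D (adjusted p = 0.45).

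IRS2, the adaptor that links the insulin receptor to PI3K, fell under U0126 in 3D. At 209185_s_at, the 3D values at 0.5, 1, 4, 8, 12, 24 and 48 h were 0.09, 0.26, -0.19, 0.05, 0.17, 0.09 and 0.32 under U0126, against 0.48, 0.57, 0.44, 0.37, 0.48, 0.51 and 0.61 under DMSO-EGF. All 7 U0126 arrays were below all 7 DMSO-EGF arrays. The middle difference was -0.42 (SE 0.07, adjusted p = 0.00025) and the late difference -0.36 (SE 0.08, adjusted p = 0.0018). At 209184_s_at they were -0.49 (SE 0.09, adjusted p = 0.00075) and -0.36 (SE 0.11, adjusted p = 0.013).

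The late call of IRS2 209184_s_at held in 1 of 4 fits that left out an array, and against the EGF arm its difference was -0.10. The early differences of IRS2 in 3D were -0.34 and -0.35 (adjusted p = 0.54 and 0.11). In 2D IRS2 differed by 0.04 and 0.05 in the late window (adjusted p = 0.98 and 0.96). The late difference between cultures was -0.39 and -0.41 (adjusted p = 0.26 and 0.10), so the late effect was not shown to differ between them. At 4 h in 2D U0126 was the lower arm at both probe sets in both series, and at 12 h the higher. At 209185_s_at the 4 h values were 0.93 in 2D03 and 0.42 in 2D04 under U0126, against 1.42 and 0.82 under DMSO-EGF. Its middle effect averaged -0.15 in 2D03 and -0.21 in 2D04, and was not called in 2D.

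INSR, the insulin receptor, gave late effects of -0.19 and 0.17 in 3D (adjusted p = 0.28 and 0.38) and -0.04 and 0.04 in 2D (adjusted p = 0.93 and 0.96). Its probe sets, 207851_s_at and 213792_s_at, correlated at r = -0.02 across all arrays. Over those arrays 207851_s_at ranged from -0.28 to 0.55 and 213792_s_at from -0.33 to 1.19, so they do not report 1 common signal.

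CCNG2, cyclin G2, an unusual cyclin linked to cell cycle exit, rose earlier under U0126 in 3D and then met the other arms. At 202769_at the 3D values at 4, 8, 12, 24 and 48 h were -0.14, 0.45, 0.57, 0.35 and 0.48 under U0126, against -0.71, -0.05, -0.04, 0.31 and 0.66 under DMSO-EGF. U0126 was above DMSO-EGF at 4 to 24 h and below it at 48 h. The middle difference was 0.56 (SE 0.10, adjusted p = 0.00059), and the other probe sets, 202770_s_at and 211559_s_at, gave 0.59 and 0.58 (both adjusted p = 0.0014). Late differences were -0.07, -0.13 and -0.07 (adjusted p = 0.71, 0.55 and 0.76).

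In 2D CCNG2 gave middle differences of -0.03, -0.13 and -0.40 (adjusted p = 0.96, 0.86 and 0.36) and late differences of 0.39, 0.55 and 0.57 (adjusted p = 0.30, 0.33 and 0.22). At 211559_s_at the U0126 values of -1.57 and -1.37, against -0.33 and -0.50 under DMSO-EGF, came from the 2D03 arrays at 8 and 12 h with the low actin 5' signal, and the part of RNA quality in them was not tested. At 4 h in 2D the 3 arms with EGF were all low, as 202769_at had -1.17 and -1.29 under U0126, -1.0 and -1.18 under DMSO-EGF and -0.90 and -1.21 under EGF, against -0.27 and -0.21 in controls (2D03 and 2D04 in each case). At all 3 probe sets each of these arms lay below the control of its series, with differences from -0.59 to -1.32. EGF minus control at 4 h, chosen after the values were seen, was -0.82 (adjusted p = 1) with 0 of 22406 probe sets called by limma and 257 at unadjusted p under 0.05.

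The middle U0126 effect on CCNG2 was larger in 3D than in 2D by 0.98 at 211559_s_at (SE 0.20, adjusted p = 0.0019), called in all 18 fits that left out 1 middle array. At 202770_s_at it was larger by 0.72 (SE 0.20, adjusted p = 0.036), called in 5 of 18, and at 202769_at the difference of 0.59 was not called (adjusted p = 0.059). The 2D03 arrays of low actin 5' signal take part in this comparison. Without both of them the differences were 0.88 at 211559_s_at, 0.87 at 202770_s_at and 0.77 at 202769_at. The 2D03 U0126 value of that fit rested on the 4 h array alone, so the hours no longer matched between cultures.

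**Figure D3:**
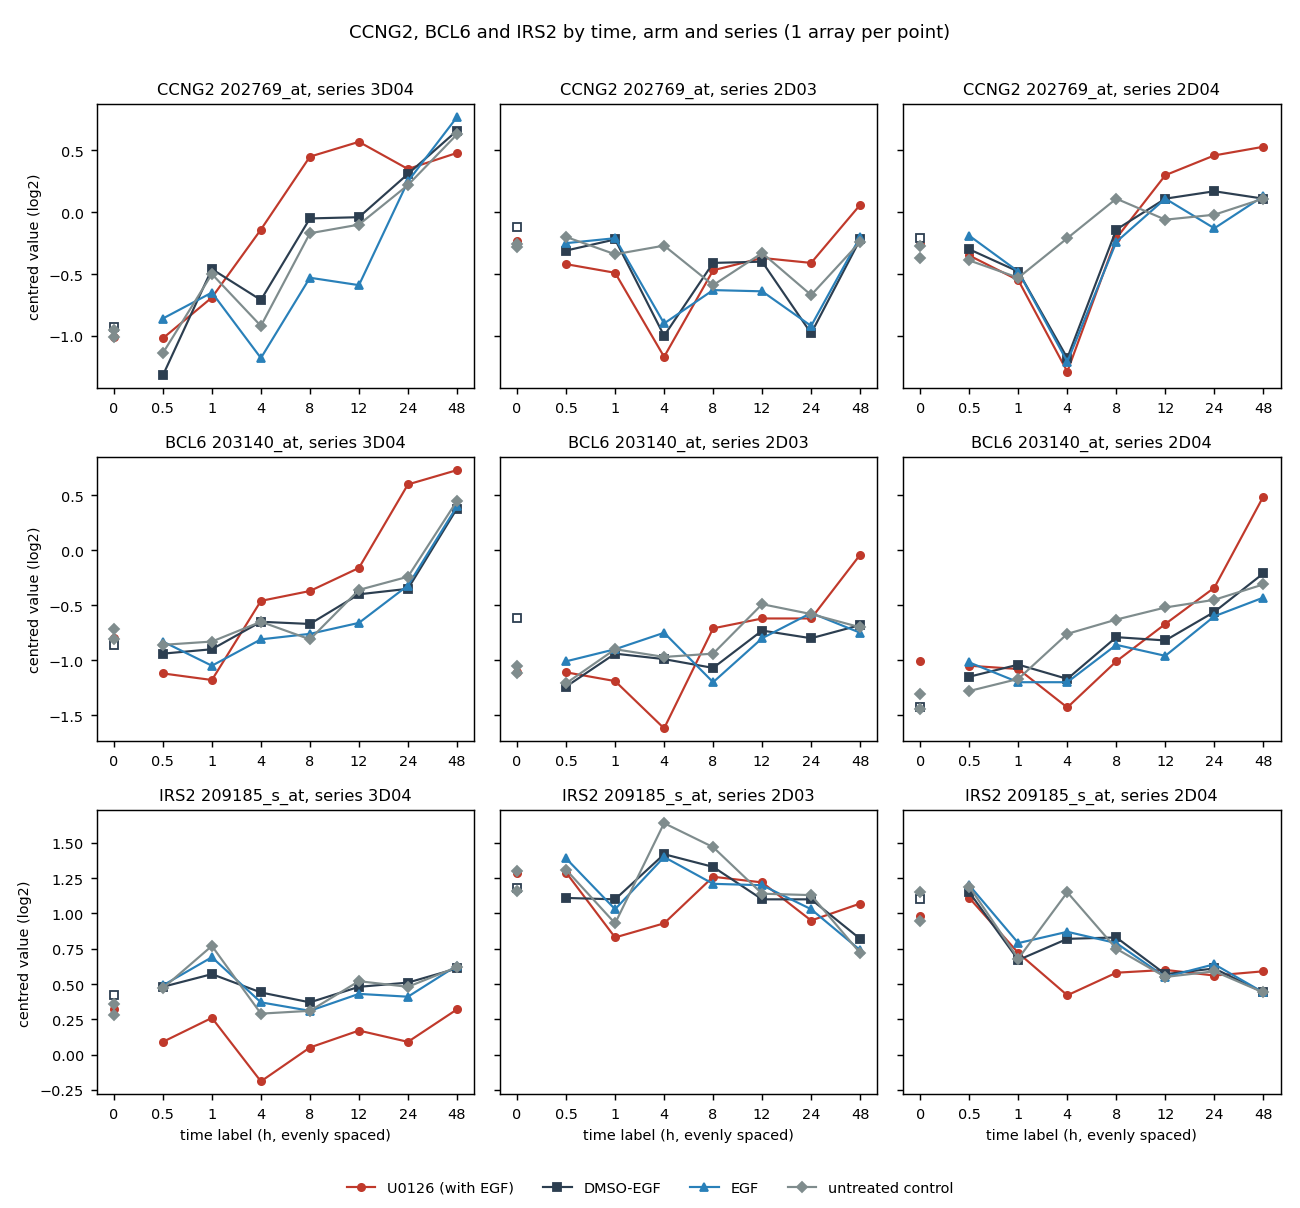
Centred log2 values of CCNG2 (202769_at), BCL6 (203140_at) and IRS2 (209185_s_at) against the time label in h, evenly spaced, by arm in series 3D04, 2D03 and 2D04, where each point is 1 array and the 0 h points are U0126 without EGF (circle), DMSO without EGF (open square) and 2 controls (diamonds). CCNG2 in 2D dips at 4 h to between -0.90 and -1.29 in the 3 arms with EGF, and IRS2 in 3D is lower under U0126 at all 7 times.

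BCL6, a transcriptional repressor on chromosome 3, rose late under U0126 in both cultures. At 203140_at the values at 24 and 48 h in 3D were 0.60 and 0.73 under U0126, against -0.35 and 0.38 under DMSO-EGF. Both U0126 arrays were above both DMSO-EGF arrays, and the difference was 0.65 (SE 0.12, adjusted p = 0.00021). In 2D the U0126 values were -0.62 and -0.04 in 2D03 and -0.34 and 0.49 in 2D04, against -0.80 and -0.68 in 2D03 and -0.56 and -0.21 in 2D04 under DMSO-EGF.

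In 2D BCL6 203140_at was higher under U0126 in all 4 matched pairs, while the arms overlapped across series. The difference was 0.44 (SE 0.14, adjusted p = 0.039), a 1.35-fold change, and at 48 h alone it was 0.67 (adjusted p = 0.032). The second BCL6 probe set, 215990_s_at, rose by 0.73 in 3D (SE 0.18, adjusted p = 0.0034) and gave 0.23 in 2D (adjusted p = 0.22). Its 3D call was lost in 2 of 4 fits that left out 1 array, where the difference lay between 0.23 and 1.23. At 4 h in 2D 203140_at was lower under U0126, at -1.62 and -1.43, against -0.99 and -1.17 under DMSO-EGF, a difference of -0.45 (adjusted p = 0.98). The late effect was not shown to differ between the cultures (0.22 and 0.51, adjusted p = 0.68 and 0.10).

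SESN1, sestrin 1, a stress protein that restrains the growth kinase complex mTORC1, gave late effects of 0.19 in 3D (adjusted p = 0.39) and -0.02 in 2D (adjusted p = 0.97). Its largest window difference was 0.29 in the middle window in 2D (SE 0.10, adjusted p = 0.093). With the replicate block SESN1 was called (adjusted p = 0.033), the 1 of 18 members so called, where 16.7% of all probe sets were called either way.

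TXNIP, which binds thioredoxin and limits glucose uptake, had the widest range of the members, from -1.36 to 2.77 over all arrays and its 3 probe sets. These agreed closely, with r of 0.95 to 0.98. At 201008_s_at the 3D values at 0.5, 1, 4, 8, 12, 24 and 48 h were -1.17, -0.99, 0.02, 0.24, 0.90, 2.23 and 2.77 under U0126, against -0.86, -0.45, -0.56, -0.45, -0.49, 0.24 and 0.76 under DMSO-EGF. U0126 was the lower arm at 0.5 and 1 h and the higher arm at every time from 4 h on. The early difference was -0.43 (SE 0.18, adjusted p = 0.95), the middle 0.89 (SE 0.15, adjusted p = 0.00053) and the late 2.00 (SE 0.18, adjusted p = 1.1e-07), a 4.00-fold change. The other probe sets rose late by 1.97 (201009_s_at, adjusted p = 1.6e-07) and 1.66 (201010_s_at, adjusted p = 4.7e-06).

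In 2D TXNIP also stood higher under U0126 at 24 and 48 h within each series, and the main test did not call it. At 201008_s_at the U0126 values were 2.36 and 1.63 in 2D03 and 1.27 and 2.36 in 2D04, against 1.95 and 0.57 in 2D03 and 0.15 and 0.03 in 2D04 under DMSO-EGF. U0126 was higher in all 4 matched pairs. At 0 h, without EGF, 2D03 had 1.97 with U0126 and 1.78 with DMSO, and 2D04 had 1.04 and 0.69. In 2D03 the U0126 value at 48 h was thus below that at 0 h, and the DMSO-EGF value was lower still. The late differences were 1.23, 1.2 and 1.15 (adjusted p = 0.18, 0.19 and 0.15).

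With the series as a replicate block, the TXNIP differences in 2D were called with adjusted p = 0.00026, 9.7e-05 and 3.9e-05. The block called 6 of 18 members in the late window, all 3 TXNIP probe sets beside the FOXO1 and BCL6 ones of the main test, where it called 20.9% of all probe sets. In series 2D03 alone the TXNIP differences were 0.74, 0.76 and 0.63, and in 2D04 alone 1.73, 1.65 and 1.67. The late minus middle change of the U0126 effect in 2D was called for 0 members (1.86% of all probe sets). With the block it was called for 4, FOXO1 202724_s_at (0.82) and TXNIP (1.19, 0.92 and 0.92), beside 8.19% of all. With the block and without the 2 U0126 arrays of low actin 5' signal it was called for 1, FOXO1 202724_s_at (0.86, adjusted p = 0.024), and TXNIP gave 0.78, 0.75 and 0.77 (adjusted p = 0.13, 0.18 and 0.11).

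The late effect on TXNIP was larger in 3D than in 2D by 0.76 at 201009_s_at (SE 0.24, adjusted p = 0.038), and by 0.77 and 0.51 at the other probe sets (adjusted p = 0.060 and 0.23). The call of 201009_s_at held in 4 of 12 fits that left out 1 array. In the middle window 201008_s_at differed by 0.85 (SE 0.22, adjusted p = 0.02), called in 15 of 18 such fits. The other probe sets, 201009_s_at and 201010_s_at, were called in 1 and 3 of 18, with differences of 0.29 to 0.75 and 0.42 to 0.91. In 2D04 the middle U0126 effect averaged 0.56, 0.58 and 0.47 at 201008_s_at, 201009_s_at and 201010_s_at, and was above 0 at all 3 hours. In 2D03, which holds the arrays of low actin 5' signal, it averaged -0.48, -0.02 and -0.01. Without both 2D03 arrays of low actin 5' signal the 3D minus 2D difference was 0.60, 0.51 and 0.68 at these probe sets. That fit held only the 4 h middle U0126 array of 2D03, so the hours no longer matched between cultures.

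**Figure D4:**
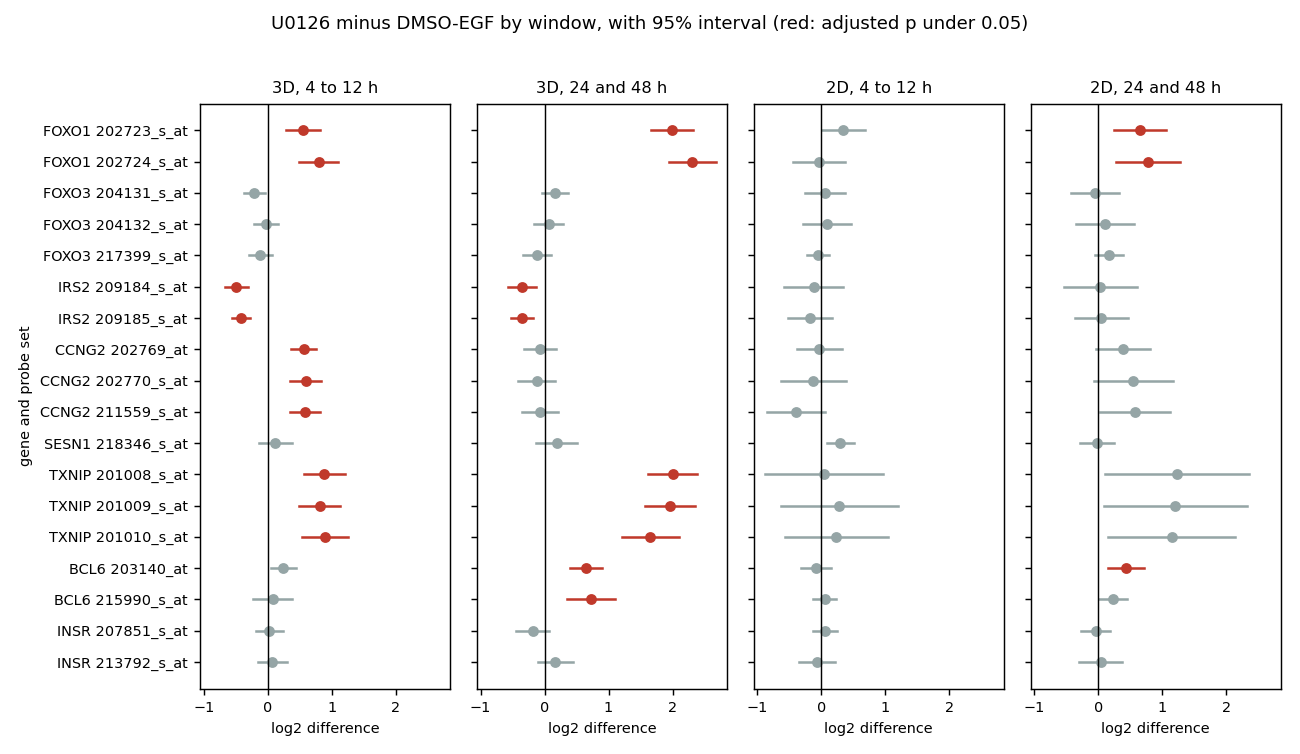
Log2 difference between U0126 and DMSO-EGF (x axis) for each member probe set (y axis) in the middle and late windows of 3D and 2D culture, where points are limma estimates, lines 95% intervals and red marks an adjusted p under 0.05. FOXO1 and TXNIP lie between 1.66 and 2.31 in the late 3D panel, and the wide TXNIP intervals in 2D reach 2.36.

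EGF by itself moved no member past the test, the low CCNG2 values of the EGF arm at 4 h in 2D included. That 4 h test had 1 array per arm in each series and did not pair the series. Its lack of calls therefore does not show that CCNG2 was unchanged. An average over all times can dilute such a brief change. EGF minus control over all times in 2D was called for 0 members and 0% of all probe sets, with 295 probe sets at unadjusted p under 0.05. DMSO-EGF minus EGF was likewise called for 0 members and 0%, with 230. Over all times, EGF minus control ranged among members from -0.15 (CCNG2 202769_at, 95% interval -0.38 to 0.07) to 0.14 (TXNIP 201009_s_at, -0.45 to 0.74). In 3D the middle EGF minus control differences of CCNG2 were -0.37, -0.51 and -0.38 (adjusted p = 1), with 0 probe sets called by limma and 755 at unadjusted p under 0.05.

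Members also drifted in untreated cells as the time in low serum went on, with BCL6 203140_at higher late in both cultures. In 3D CCNG2, TXNIP and BCL6 203140_at rose between 0 h and the late window, 7 of 18 members beside 4.03% of all probe sets called higher. The CCNG2 differences were 1.41, 1.82 and 1.48 (adjusted p = 0.014, 0.0029 and 0.011), those of TXNIP 1.62, 1.48 and 1.63 (adjusted p = 0.0066, 0.014 and 0.0093) and that of BCL6 0.87 (adjusted p = 0.022). In 2D BCL6 rose by 0.72 (203140_at, adjusted p = 0.0015) and 0.36 (215990_s_at, adjusted p = 0.049), 2 of 18 beside 1.95%. TXNIP had -1.03, -1.05 and -0.95 in 2D (adjusted p = 0.44, 0.42 and 0.40).

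The controls of TXNIP began far apart. At 201008_s_at the control values at 24 and 48 h in 3D were -0.14 and 1.00, against -1.25 and -1.13 at 0 h. In 2D03 they were 1.86 and 0.52, against 2.23 and 2.21 at 0 h. In 2D04 they were -0.06 and -0.20, against 0.81 and 0.99 at 0 h. Both late arrays were above both 0 h arrays in 3D and below them in each 2D series.

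CCNG2 202769_at had control values of 0.22 and 0.63 at 24 and 48 h in 3D, against -1.01 and -0.95 at 0 h. In 2D they were -0.67 and -0.24 in 2D03 and -0.02 and 0.11 in 2D04, against -0.28 and -0.26 in 2D03 and -0.27 and -0.37 in 2D04 at 0 h. Both late arrays were above both 0 h arrays in 2D04, and in 2D03 they lay on both sides of them. BCL6 203140_at was higher in the late controls of all 3 series, with -0.24 and 0.45 against -0.72 and -0.81 in 3D, -0.58 and -0.70 against -1.12 and -1.05 in 2D03, and -0.45 and -0.31 against -1.44 and -1.31 in 2D04.

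The 3D drift calls rested on few arrays. None of the 18 members was called without control repeat 1 at 0 h (2 probe sets called in all) or without the control array at 48 h (0 called in all), 1 was called without repeat 2 at 0 h, and 2 without all the 48 h arrays. In 2D the call of BCL6 203140_at held in all 8 fits that left out a control array, and that of 215990_s_at in 1 of 8. With the replicate block 9 members were called in 2D, beside 11.9% of all probe sets called either way. Besides BCL6, these were FOXO1 202724_s_at (0.58, adjusted p = 0.042), which rose, and FOXO3 204132_s_at (-0.23, adjusted p = 0.025), IRS2 (-0.56 and -0.42, adjusted p = 0.012 and 0.0029) and TXNIP (adjusted p = 0.0045, 0.0015 and 0.0014), which fell.

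The drift itself differed between the cultures in a fit of the 12 control arrays of 0, 24 and 48 h, added after the values were seen. The 3D minus 2D difference was 2.65, 2.52 and 2.58 for TXNIP (adjusted p = 0.044, 0.049 and 0.034) and 1.32, 1.80 and 1.28 for CCNG2 (adjusted p = 0.023, 0.017 and 0.045). That is 6 of 18 members, beside 0.196% of all probe sets called higher. When 1 of the 12 arrays was left out, the number of called members lay between 0 and 8, while the differences stayed between 2.03 and 3.22 for TXNIP and between 0.94 and 2.02 for CCNG2. No member was called without either 0 h control of series 2D03 or without either 0 h control of 3D04.

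**Figure D5:**
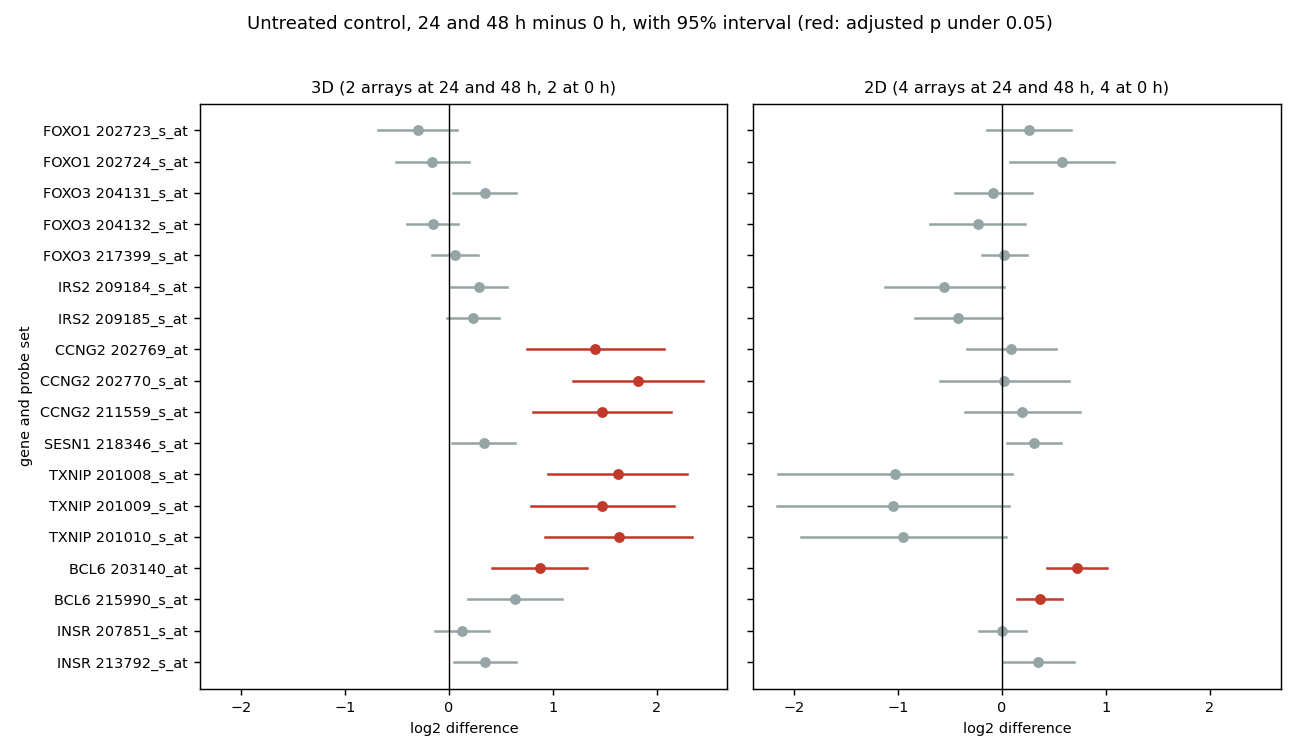
Log2 difference between untreated controls at 24 and 48 h and controls at 0 h (x axis) for each member probe set (y axis) in 3D (2 late and 2 zero-hour arrays) and 2D (4 and 4), where points are limma estimates, lines 95% intervals and red marks an adjusted p under 0.05. CCNG2 and TXNIP lie between 1.41 and 1.82 in 3D, and TXNIP lies between -1.05 and -0.95 in 2D without passing the test.

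Other genes of the pathway gave mixed directions under U0126 in the late window. Of all probe sets, 18.6% rose and 16.1% fell in 3D, and 5.36% rose and 5% fell in 2D, and the list counts stand beside these shares. Of 29 probe sets of the insulin and PI3K-AKT list, 8 rose and 3 fell in 3D, and 5 rose and 1 fell in 2D, with medians of 0.07 in 3D and 0.05 in 2D. In 2D PIK3R3, a regulatory subunit of PI3K, rose by 1.4 (adjusted p = 6.4e-07), PIK3IP1, a PI3K inhibitor protein, by 0.52 (adjusted p = 0.0054) and TSC2, which restrains mTORC1, by 0.33 (adjusted p = 0.033). SGK1, a kinase that phosphorylates FOXO proteins, fell by 2.29 (adjusted p = 1.1e-05). Of 48 probe sets for regulators of FOXO proteins, such as acetylases, 14-3-3 proteins and ubiquitin enzymes, 4 rose and 13 fell in 3D, and 0 were called in 2D.

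Of 48 probe sets of other FOXO targets, 17 rose and 14 fell in 3D, beside 18.6% and 16.1% of all. In 2D 8 rose and 2 fell, beside 5.36% and 5%, and the median was 0.03 in each culture. In 2D the mitochondrial kinase PINK1 rose by 0.94 (adjusted p = 3.1e-08), catalase, CAT, by 0.91 (adjusted p = 0.00017) and the MYC antagonist MXI1 by 0.62 (adjusted p = 0.00017). IGFBP1, an insulin-like growth factor binding protein and FOXO target, fell by 2.07 (adjusted p = 1.8e-05). In the late 3D controls 14 of these 48 probe sets rose and 0 fell, beside 4.03% of all called higher.

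Among 8 probe sets of genes that FOXO factors repress, 2 rose and 3 fell in 3D (18.6% and 16.1% of all), and 0 rose and 2 fell in 2D (5.36% and 5% of all), where CCND1, cyclin D1, fell by 1.02 (adjusted p = 5.3e-10). Of 10 probe sets of TXNIP partners, paralogs and regulators, 3 rose and 3 fell in 3D, and 1 rose and 2 fell in 2D. TXNRD1, thioredoxin reductase, rose by 0.59 in 2D (adjusted p = 0.0075), and MLX, a partner of the factor that drives TXNIP, fell by 0.52 (adjusted p = 0.0079). CCNG1 and CCNI, cyclins related to CCNG2, rose at 3 of 3 probe sets in 3D, where 18.6% of all rose, and at 0 of 3 in 2D, where 5.36% did.

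In the late window FOXO1, TXNIP and BCL6 stood higher under U0126 than under DMSO-EGF, and proliferation genes stood lower. Of the proliferation genes, 27 of 27 probe sets were lower in 3D (16.1% of all) and in 2D (5% of all). Their medians were -2.19 in 3D and -1.34 in 2D. In 2D CDK1 fell by 1.17 (adjusted p = 1.1e-10) and MKI67 by 1.28 (adjusted p = 1.2e-08). In the late 3D controls 5 of 27 fell, beside 2.85% of all. The part of proliferation in the members' changes was not tested. Leukocyte markers were called at 1 of 9 probe sets and fibroblast markers at 1 of 21 in 3D, all higher, and at 0 in 2D. Luminal epithelial markers rose at 5 and fell at 1 of 23 in 3D, with a median of 0.04. In 2D they rose at 2, with a median of 0.07, and FOXA1 rose by 0.97 (adjusted p = 9.4e-07). These marker counts stand beside 18.6% of all probe sets called higher and 16.1% lower in 3D, and 5.36% and 5% in 2D. In RNA from whole cultures, fewer cells expressing a gene and less RNA per cell cannot be told apart.

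Over the 21 points of series and time, the U0126 effects of FOXO1, TXNIP and BCL6 ran together, with Pearson's r of 0.73 for FOXO1 with TXNIP, 0.77 for FOXO1 with BCL6 and 0.77 for TXNIP with BCL6. FOXO3 and IRS2 correlated at 0.67, and FOXO1 with IRS2 at -0.04. The genes most like FOXO1 by this measure were ATP8A1 (r = 0.95) and PPP3CA (r = 0.94), those most like TXNIP were AKR1C1 (r = 0.97) and AKR1C2 (r = 0.95), and those most like CCNG2 were ZNF217 (r = 0.89) and SLC7A11 (r = 0.87). BCL6 ran with SPSB3 and IQSEC1 (both r = 0.90), IRS2 with LRP2BP (0.81) and SLC25A36 (0.80), and SESN1 with NUDT6 (0.85) and TDO2 (0.84). FOXO3 and INSR had weaker neighbours, BTAF1 (0.74) and SERPIND1 (0.70) for FOXO3, and GPR37L1 (0.72) and RAB40AL (0.70) for INSR. The points share arrays and series, so these values are a description.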

How the data were processed

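RNA of MDA-MB-231 cells was hybridised to 96 Affymetrix arrays. The authors deposited 1 table of values with 2 decimals, made with RMA per the submitters' processing notes, which name no version, and these are read here as log2 values, centred per probe set. The log base and the centre are not given in the sources used here. Array medians lay between -0.07 and 0.04, and depth does not apply to arrays, whose number limits the precision. Of 22930 probe sets, 524 array controls were left out and 22406 tested, of which 19415 had 1 gene symbol, 125 several and 2866 none listed.

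Groups came from the array titles. limma 3.58.1 (R 4.3.3, lmFit and eBayes, no filter on low values) was fitted to 31 group means in 2D (33 residual degrees of freedom), to arm by window plus time in 3D (12), and to all series for the culture difference (36). The 3D drift was fitted to arm by window means without terms for time (17). The drift difference between cultures came from a separate fit of 12 control arrays. Figures used Python 3.11.15 and matplotlib 3.10.9. Deviations of the 2D repeats, which the labels tie to a series, correlated between groups at 0.20 to 0.79 (median 0.60, 465 pairs of groups), so repeat numbers pair the samples, and the fit with the series as a replicate block is given where it changes a call. Tested on simulated data with 200 of 22406 probe sets changed by 1 on the log2 scale, the fits recovered 96% in the late 2D comparison, 92.5% in the late 3D comparison, 90.5% in the culture difference, 92.5% in the 2D drift and 78.5% in the 3D drift. Of the calls made there, 2.54%, 4.64%, 2.16%, 7.5% and 1.88% were of unchanged probe sets, in the same order of comparisons. The simulated noise was independent between arrays, the largest spreads were capped, and the 2D simulations held no difference between series. The recovery need not hold for probe sets of large spread, such as those of TXNIP.

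The members and lists were chosen with earlier results of these data known. Every member probe set is described, from each list up to 4 genes of smallest adjusted p in the late 2D comparison were eligible for naming, DUSP6, SPRY4 and EGR1 were always named, and the 2 most similar genes were taken per member. Alternatives covered normalization, centring, variance trend, array weights, probe set choice, a filter on low spread, control arm, single series, times and arrays. Single time points, 3D EGF effects the middle-window and drift differences between cultures and the middle-window difference without both arrays of low actin 5' signal were added after seeing the data.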

Additional observations from a re-analysis of the deposited data

Results flagged for a closer look

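The U0126 effect differed between 3D and 2D culture for 3 member probe sets in the late window, by a test of the difference itself. The 3D minus 2D difference was 1.34 and 1.53 for FOXO1 (202723_s_at, 202724_s_at) and 0.76 for TXNIP 201009_s_at, beside 4.01% of all probe sets called higher. The FOXO1 calls held in all 12 fits that left out 1 array, and that of TXNIP in 4 of 12. In the middle window it was 0.83 for FOXO1 202724_s_at, 0.72 and 0.98 for CCNG2 (202770_s_at, 211559_s_at) and 0.85 for TXNIP 201008_s_at, beside 1.94% of all. These calls held, in that order, in 9, 5, 18 and 15 of 18 fits that left out 1 array. Without both 2D03 arrays of low actin 5' signal the TXNIP difference was 0.60, while those of FOXO1 and CCNG2 were 1.05, 0.87 and 0.88. BCL6 203140_at, called in 0 of 18 fits that left out 1 array, gave 0.63 without both. The 2D03 U0126 value then rested on the 4 h array alone, so the hours no longer matched between cultures. The drift of untreated controls differed by 1.32, 1.80 and 1.28 for CCNG2 and by 2.65, 2.52 and 2.58 for TXNIP, beside 0.196% of all called higher. The drift calls rested on few arrays, as between 0 and 8 members were called when 1 of 12 arrays was left out. The middle-window and drift tests were added after the values were seen, and culture and series cannot be told apart in any of them.

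Of the 4 control arrays of FOXO3 204131_s_at at 0 h in 2D, 1 stood apart at -0.12, where the others had 0.09, 0.09 and 0.12. This was 1 of 18 such groups tested, and chance flags about 1 in 20.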

How the results depend on the processing

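Counts are of 18 member probe sets called. The late 2D count of 3 became 1 with quantile normalization, 0 with array weights, 6 with the replicate block, 5 when only series 2D03 was used, 6 when only 2D04 was used, 0 without the 48 h arrays, 1 against the control arm and 9 in a joint fit of all 3 series, and lay between 0 and 3 with 1 array left out. The middle 2D count of 0 became 1 with the replicate block, 2 when only 1 series was used (either one), 1 without the 4 h arrays, 2 against the control arm and 3 in the joint fit (0 to 1 with 1 array left out). The early 3D count of 0 became 1 against the EGF arm and 1 against the control arm, IRS2 209185_s_at in both. The 2D drift count of 2 became 1 with quantile normalization, 9 with the replicate block, 0 in 2D03, 5 in 2D04 and 1 without the 48 h arrays (1 to 2 with 1 array left out). The 3D drift count of 7 became 2 without the 48 h arrays (0 to 10 with 1 array left out). The late culture difference, 3 called, became 6 without the 48 h arrays (2 to 5 with 1 array left out). The late minus middle count of 0 became 4 with the replicate block, 4 in either series alone, and 1 with the block when the U0126 arrays of low actin 5' signal were left out (0 to 1 with 1 array left out). The causes of these moves were not tested.

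The replicate block changed the number of all probe sets called to 3741 in the middle 2D comparison (1462 without it), 4685 in the late one (2323), 2660 in the 2D drift (822) and 1835 in late minus middle (416), and the joint fit called 5807 and 6255 in the middle and late 2D comparisons. The late 3D count of 9 stayed between 7 and 9 and the middle 3D count of 10 between 9 and 10 with 1 array left out. No member called in either fit turned its sign under any alternative run.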
